A study of Solenopsis invicta with 3 samples.

Results

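This comparison set the antennae of polygyne SB/Sb workers (P_Bb) against those of monogyne SB/SB workers (M_BB) of the red imported fire ant Solenopsis invicta. The 2 libraries were chosen by their labelled class out of 3 in the series, and all 19703 gene IDs of the gene tables were taken in. The groups differed in supergene genotype and in social form at once. The third library, from polygyne SB/SB workers (P_BB), differed from P_Bb in genotype only and from M_BB in social form only. It was used as the intermediate class, so that each difference could be split into a genotype step (P_Bb over P_BB) and a social form step (P_BB over M_BB).

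The P_Bb and P_BB workers came from the same 4 labelled polygyne colonies and the M_BB workers from 4 other colonies, all foragers collected in Taiwan and kept in the laboratory before sampling. The labels name 4 colonies for each pool, whereas the description of the series has RNA of 3 bioreplicates combined for each class. Each class was therefore 1 library of pooled antennae with no replicate, and library cannot be told apart from the class. The M_BB colonies were not those of the polygyne classes, so colony cannot be told apart from social form, although monogyne and polygyne colonies were collected and sampled in pairs on shared days. The libraries were made from polyadenylated RNA with a stranded kit and sequenced as paired ends.

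The supergene is a pair of non-recombining haplotypes of the social chromosome, SB and Sb. Colonies with a single queen hold SB/SB workers, while colonies with several queens hold SB/SB and SB/Sb workers, and polygyne workers accept further queens by their genotype. The insect antenna is the main olfactory organ. Odorant-binding proteins carry odorants through the fluid of the sensilla, and odorant receptors in the neurons respond to them. Transposable elements are mobile sequences whose transcripts come from the element's own genes, such as transposases of DNA elements and the Gag and Pol proteins of Gypsy and Copia retroelements.

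The tables summed to 1310209 expected counts in P_Bb and 1800106 in P_BB, against 1453234 in M_BB, and 13011, 13507 and 13482 genes had a count above 0 in these libraries in the same order. Normalised counts below are expected counts divided by an upper-quartile size factor. Of the 19703 genes, 14256 had a count in P_Bb or M_BB, and 8414 reached a mean normalised count of 10 over these 2 libraries and were compared. The SiOR genes, odorant receptors of olfactory neurons and the only named cell type markers in the tables, were detected in all libraries, with 431 above 0 in P_Bb and 439 in P_BB, against 437 in M_BB out of 473. They took 0.379% of the counts in P_Bb and 0.356% in P_BB, against 0.4% in M_BB, with 95% Wilson intervals of 0.369 to 0.39, 0.347 to 0.365 and 0.39 to 0.41 in that order. Markers of other antennal cell types could not be checked by name.

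Most genes lay close together in the 2 classes. A gene was called apart when its ratio was at least 2-fold with 0.5 added to each normalised count, and 451 of 8414 compared genes (5.36%) were. Of these, 221 (2.63%) were higher and 230 (2.73%) lower in P_Bb than in M_BB. The median log2 ratio of the compared genes was 0.04. The 2-fold rule alone reads little at low depth: 255 of the 451 genes had a mean normalised count of 10 to 20, where 14.2% of genes were called, and 24 had a mean of at least 100. In 337 of the 451 the 95% counting interval also excluded a ratio of 1, 180 higher and 157 lower. Intervals cover counting error alone, from exact conditional limits on the rounded counts, and say nothing of the spread between colonies. Over all compared genes the interval lay above a ratio of 1 for 1092 genes (13%) and below it for 601 (7.14%), whatever the fold.

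**Figure D1:**
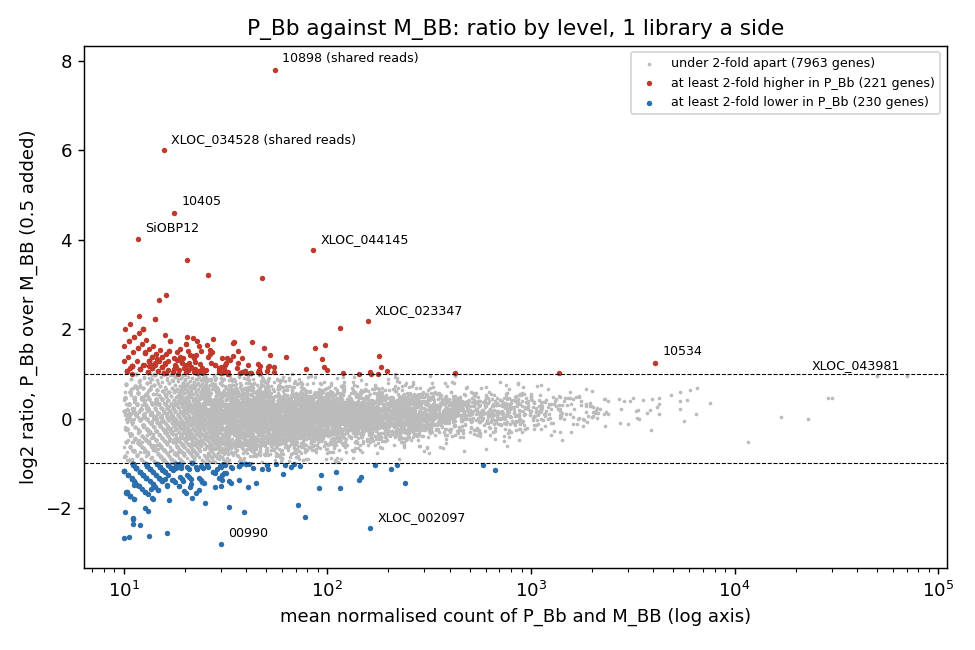
Each point is a compared gene, with its mean normalised count over P_Bb and M_BB on a log axis and its log2 ratio of P_Bb over M_BB (0.5 added to both) on the vertical axis. Dashed lines mark 2-fold. The 221 genes higher and 230 lower in P_Bb lie mostly at means under 50, and the 2 highest ratios belong to genes whose reads are shared with other genes.

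The balance of the calls depended on the scaling. When library totals set the scale, P_Bb had 127 higher and 417 lower genes, and the median of all compared genes was -0.16. With the deposited TPM, 177 were higher and 302 lower. The transcripts XLOC_043981 and XLOC_043984, the most abundant in each library and chosen here after their values were seen, made up 10.2% of the counts in P_Bb and 12.2% in P_BB, against 6.03% in M_BB. XLOC_043981 stood at 92951 normalised counts in P_Bb and 109864 in P_BB, against 48235 in M_BB. XLOC_043984 stood at 65769, 87737 and 34004 normalised counts in P_Bb, P_BB and M_BB. Both were higher in P_Bb than in M_BB by a log2 ratio of 0.95, just short of the 2-fold rule, and both were lower in P_Bb than in P_BB. Their part in the shift between scalings was not tested.

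Genes were ranked by the bound of the counting interval nearest a ratio of 1, so that a gene ranks high only if its difference is large beyond the counting error. Log2 ratios of single genes are given from here on without an added count, with their 95% counting interval. In the higher direction the 2 first places went to genes whose values do not settle the ratio. SINVm1_gene_10898 had 111 normalised counts in P_Bb and 37.4 in P_BB, against 0 in M_BB, but its deposited posterior mean count was 78.7 ± 45.3 in P_Bb against 36.6 ± 30.8 in M_BB (posterior SD). XLOC_034528 had 26.4, 40.2 and 0 counts in P_Bb, P_BB and M_BB before normalisation, with posterior means of 72.1 ± 44.4 in P_Bb against 32.4 ± 32.8 in M_BB. Reads of both were shared with other genes, so an absence in M_BB cannot be read from the 0, and no fold is given.

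The third place was the highest that rested on reads assigned with little doubt. XLOC_044145, an uncharacterized protein, had 159 normalised counts in P_Bb and 27.4 in P_BB, against 11.3 in M_BB. Its log2 ratio of P_Bb over M_BB was 3.82 (2.97 to 4.81), with 2.54 (1.95 to 3.13) at the genotype step and 1.29 (0.30 to 2.40) at the social form step, and it was among the 6 genes that were 2-fold apart at both. SINVm1_gene_05106, for which no function was given, had 47.6 normalised counts in P_Bb and 13.4 in P_BB, against 4.69 in M_BB, a log2 ratio of 3.34 (2.00 to 5.04) that was also divided over both steps, although the interval of its social form step, -0.01 to 3.33, included 0. SINVm1_gene_10405, whose predicted name carries no function, had 34.5, 1.79 and 0.938 normalised counts in P_Bb, P_BB and M_BB. Its log2 ratio of 5.20 (2.61 to 10.55) rested on 29 counts in P_Bb against 1 in M_BB, and arose at the genotype step, as P_BB had 2 counts.

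SiOBP12 (SINVm1_gene_02111), an odorant-binding protein gene of the supergene region, ranked eighth. It had 19 counts in P_Bb and 1 in P_BB, against 1 in M_BB, or 22.6, 0.896 and 0.938 normalised counts. The log2 ratio of P_Bb over M_BB was 4.59 (1.94 to 9.97), and that of P_Bb over P_BB was 4.66 (2.00 to 10.03), so the whole of the difference lay at the genotype step. The social form step was -0.07 with an interval of -6.36 to 6.23, which spans both directions at 1 count a side. The study describes a second copy of this gene in the Sb haplotype, and the reads of the copies were not separated here.

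The other genes among the first 12 were also mostly uncharacterized or transposon genes. XLOC_000229, a Gypsy retroelement, had 86.8 normalised counts in P_Bb and 18.8 in P_BB, against 9.38 in M_BB, a log2 ratio of 3.21 (2.25 to 4.33). SINVm1_gene_00166, a transposase domain protein, had 38.1, 5.38 and 2.81 normalised counts in P_Bb, P_BB and M_BB, a log2 ratio of 3.76 (2.08 to 6.11). XLOC_023347, uncharacterized, was the best measured of them with 259, 93.2 and 57.2 normalised counts in P_Bb, P_BB and M_BB and a log2 ratio of 2.18 (1.76 to 2.61). In each of these the genotype step was the larger, and in XLOC_023347 both steps had intervals above a ratio of 1, with 1.48 (1.13 to 1.83) at the genotype step and 0.70 (0.23 to 1.19) at the social form step. XLOC_003265, also uncharacterized, differed in kind: it had 186 and 172 normalised counts in P_Bb and P_BB against 45.0 in M_BB, a log2 ratio of 2.04 (1.57 to 2.54) that lay at the social form step. SINVm1_gene_00322 and XLOC_036812 closed the 12, at log2 ratios of 2.93 (1.39 to 4.92) and 2.80 (1.24 to 4.80), both at the genotype step.

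The lower direction had another make-up. XLOC_002097, with no function given, came first, with 50.0 normalised counts in P_Bb and 76.2 in P_BB, against 276 in M_BB. Its log2 ratio of P_Bb over M_BB was -2.46 (-2.97 to -1.99), with -0.61 (-1.18 to -0.06) at the genotype step and -1.86 (-2.22 to -1.50) at the social form step. SINVm1_gene_00990 followed with 7.14, 13.4 and 53.0 normalised counts in P_Bb, P_BB and M_BB, a log2 ratio of -2.89 (-4.39 to -1.67). SINVm1_gene_00026 had 27.6 normalised counts in P_Bb and 29.3 in P_BB, against 128 in M_BB, a log2 ratio of -2.21 (-2.93 to -1.58). The polygyne libraries were low together in these genes and M_BB stood apart.

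The same held further down the list. XLOC_003793 had 29.7 normalised counts in P_Bb and 39.4 in P_BB, against 114 in M_BB. SINVm1_gene_15260 had 14.6, 10.6 and 63.2 normalised counts in P_Bb, P_BB and M_BB, and SINVm1_gene_00237 had 13.1, 7.44 and 53.1. SINVm1_gene_00260, a transcript of 13341 bases, had 130 and 129 normalised counts in P_Bb and P_BB against 353 in M_BB. SINVm1_gene_13844 had 58.4, 63.8 and 172 normalised counts in P_Bb, P_BB and M_BB, and SINVm1_gene_13864 had 415 and 416 against 917. Their log2 ratios of P_Bb over M_BB ran from -2.11 to -1.14, and every interval lay below 0. SINVm1_gene_14166 had 46.4 normalised counts in P_Bb and 35.9 in P_BB, against 136 in M_BB, a log2 ratio of -1.55 (-2.10 to -1.03), and is a predicted acyl-delta desaturase, an enzyme class that puts double bonds into fatty acyl chains. XLOC_001914 and SINVm1_gene_01914 held at most 4.41 normalised counts in P_Bb against 28.4 and 23.3 in M_BB, and part of their reads was shared with other genes.

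**Figure D2:**
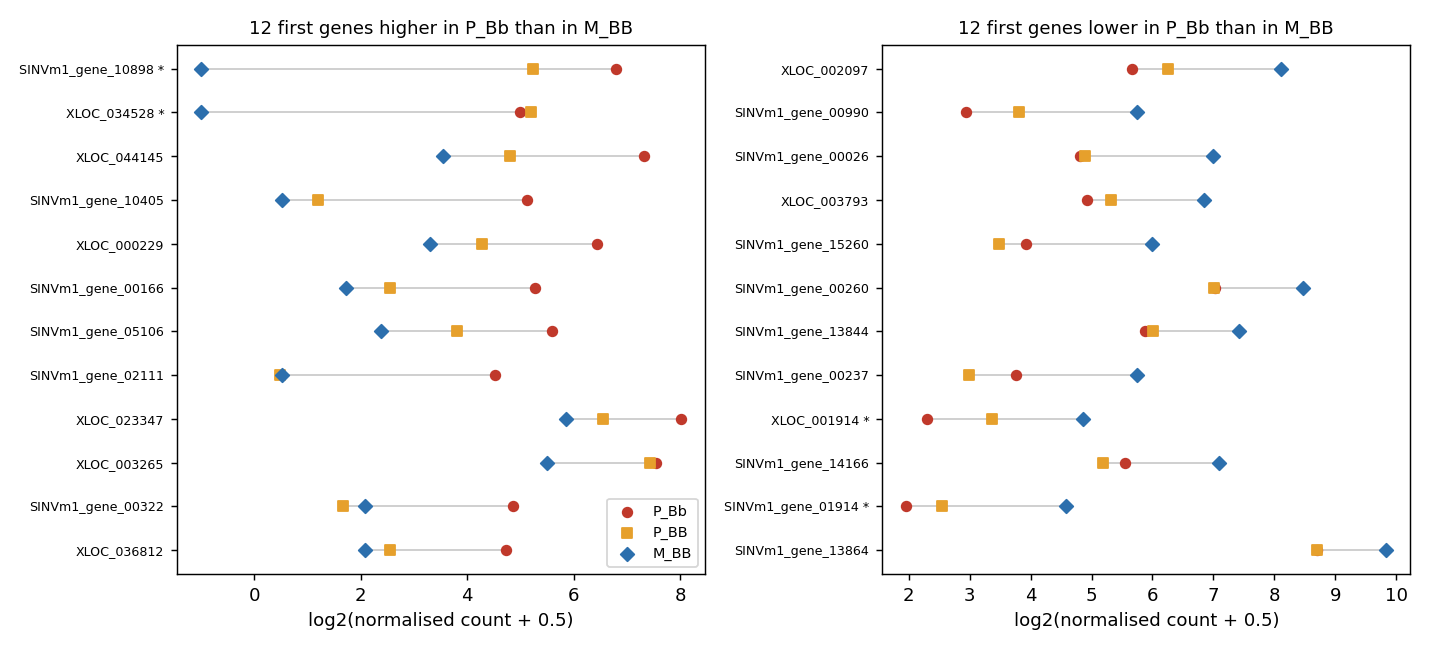
Normalised counts on a log2 scale (0.5 added) of the 12 first genes in each direction in P_Bb (circles), P_BB (squares) and M_BB (diamonds), ranked from the top by the counting bound. Asterisks mark genes with shared reads, whose posterior SD was over 10% of the posterior mean in P_Bb or M_BB. In the left panel P_BB mostly lies near M_BB, and in the right panel it lies near P_Bb.

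Of the 12 first higher genes, 7 arose at the genotype step, 2 at the social form step and 3 at both. These include SINVm1_gene_10898 at both steps and XLOC_034528 at the social form step. Their social form steps rest on the 0 in M_BB that shared reads leave unsettled, so the place of either is not settled. Of the 12 first lower genes, 11 arose at the social form step, none at the genotype step and 1 at both. Ranking by the log2 ratio itself kept 10 of the 12 in the higher direction and 5 of the 12 in the lower. By that ranking the median of the higher class's level was 33.0 normalised counts for genes higher in P_Bb and 19.8 for genes lower in P_Bb, against 42.8 and 121 by the bound.

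The split by rank did not extend to the full set of calls. A step was taken as the place of a difference when it was itself at least 2-fold in the direction of the whole. Among the 451 genes apart, 121 (1.44% of the compared genes) arose at the social form step and 83 (0.986%) at the genotype step. Another 6 (0.0713%) passed at both steps, 3 (0.0357%) had a step that ran 2-fold the other way, and 238 (2.83%) passed at neither step alone. In the higher direction these were 65 at the social form step, 42 at the genotype step, 3 at both and 110 at neither. In the lower direction they were 56, 41, 3 and 128 in the same order. P_BB lay between P_Bb and M_BB in 179 of the 221 higher genes and in 184 of the 230 lower ones. These genes were chosen because P_Bb and M_BB lie apart, and that choice itself favours a P_BB value between them. The counts therefore do not show a graded order of the classes. Both steps share the P_BB library, so a gene that is high or low there by counting error moves them in opposite directions.

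The balance moved with the level. Of the 52 called genes with a mean normalised count of at least 50, 18 arose at the social form step, 3 at the genotype step, 2 at both and 29 at neither alone. In the 28 of these that were higher in P_Bb, the genotype step made up a median of 19.6% of the log2 difference, and in the 24 that were lower a median of 30.8%. Over all calls the medians were 34.1% in the higher and 45.8% in the lower direction. Asking instead which step's own interval excluded a ratio of 1, 17 of the 28 higher genes had the social form step only, 4 the genotype step only and 7 both. The lower 24 had 17, 2 and 4, with 1 at neither. Over all calls many more genes had neither step's interval excluding a ratio of 1, 96 of the 221 higher and 121 of the 230 lower. The social form step only was so in 79 higher and 76 lower genes, the genotype step only in 39 and 29, and both in 7 and 4. A place by the 2-fold rule is thus often within counting error.

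**Figure D3:**
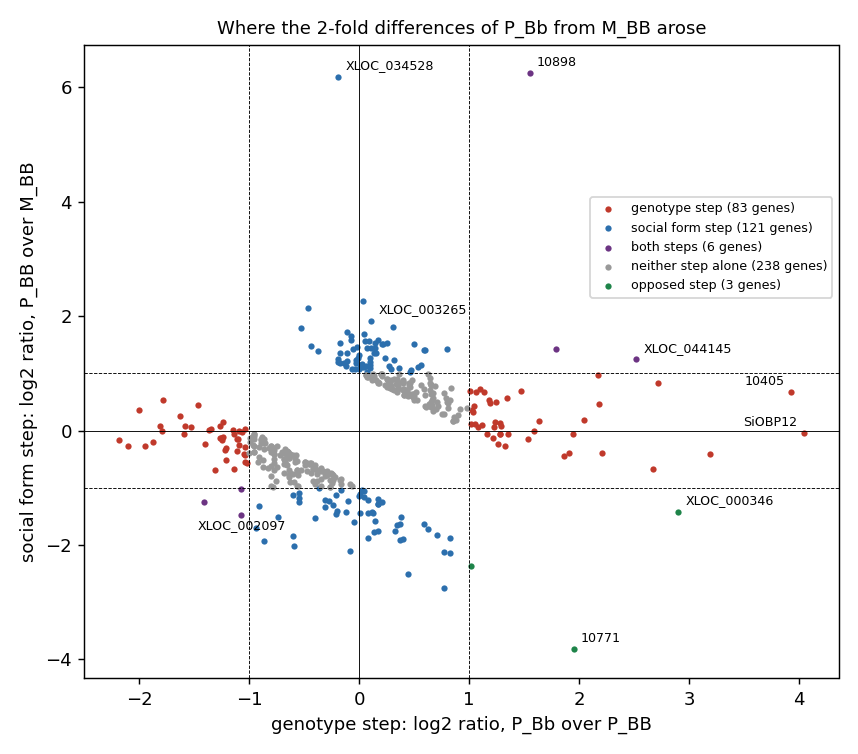
Each point is 1 of the 451 genes at least 2-fold apart, with its genotype step (log2 ratio of P_Bb over P_BB) on the horizontal axis and its social form step (log2 ratio of P_BB over M_BB) on the vertical axis, 0.5 added to each count. Dashed lines mark 2-fold at a step. The 83 genes of the genotype step lie left and right, the 121 of the social form step above and below, and the 238 that passed at neither alone lie along the diagonal between.

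Beyond the genes already given, the first lower genes of the genotype step were XLOC_034101, SINVm1_gene_01271 and XLOC_009740, none with a given function. XLOC_034101 had 54.9 normalised counts in P_Bb and 119 in P_BB, against 131 in M_BB. Its log2 ratio was -1.26 (-1.78 to -0.77), of which -1.11 (-1.64 to -0.63) fell at the genotype step. SINVm1_gene_01271 had 3 counts in P_Bb and 19 in P_BB, against 22 in M_BB, and XLOC_009740 had 3, 17 and 19.8. Their log2 ratios of P_Bb over M_BB were -2.53 (-4.91 to -0.80) and -2.38 (-4.79 to -0.64).

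SINVm1_gene_10534 was the most abundant gene of the social form step, with 5735 normalised counts in P_Bb and 8305 in P_BB, against 2407 in M_BB. The log2 ratio of P_Bb over M_BB was 1.25 (1.18 to 1.32), the sum of a social form step of 1.79 (1.72 to 1.85) and a genotype step of -0.53 (-0.58 to -0.48) that ran the other way. The same order, highest in P_BB and lowest in M_BB, was that of XLOC_043981 and XLOC_043984.

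Genes that passed at neither step alone had, by the rule itself, both steps in the direction of the whole. The parts varied, with log2 ratios of -0.60 at the genotype step and -0.76 at the social form step in SINVm1_gene_05171, against -0.89 and -0.15 in XLOC_042083. SINVm1_gene_05171 had 79.7 normalised counts in P_Bb and 121 in P_BB, against 205 in M_BB, a log2 ratio of -1.37 (-1.78 to -0.96). XLOC_043346 had 128, 227 and 281 normalised counts in P_Bb, P_BB and M_BB, and XLOC_042083 had 379, 705 and 782. XLOC_042083 fell below 2-fold when posterior mean counts were used, at a log2 ratio of -0.64 in place of -1.04. In the higher direction XLOC_000850 had 564 normalised counts in P_Bb and 473 in P_BB, against 280 in M_BB, and XLOC_002653 had 90.4, 52.0 and 34.7.

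At both steps in the lower direction stood SINVm1_gene_06841, with 2 counts in P_Bb and 8 in P_BB, against 18.8 in M_BB, and SINVm1_gene_01915, with 3, 9 and 18. The interval of their genotype step included 0, at -4.86 to 0.73 and -3.70 to 0.83 in that order. Only 3 genes had a step of 2-fold or more against the whole. SINVm1_gene_10771 had 10.5 normalised counts in P_Bb and 2.35 in P_BB, against 39.9 in M_BB. SINVm1_gene_14137 had 5 counts in P_Bb and 3 in P_BB, against 17 in M_BB, and XLOC_000346, the higher of the 3 in P_Bb, had 14, 2 and 6. In each the intermediate class lay outside the range of the other two, on the low side.

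The study had named 81 genes as differing between the classes, in other libraries made in part from the same workers. That list is no independent evidence of direction, and its counts are read beside the 5.36% of all compared genes. Of the 81, 67 were compared here, and 61 of these lay on the side the list gives. At least 2-fold were 24 higher and 5 lower in P_Bb, and their median log2 ratio was 0.57, against 0.04 over all compared genes. Of the 12 first higher genes 10 were on the list, 9 of them as higher in P_Bb and XLOC_034528 as lower, and of the 12 first lower genes 1 was, as lower.

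Transposable element genes made up the largest group of calls with an assigned process. Of 16 listed, 12 were compared, 6 were at least 2-fold higher in P_Bb and none lower, at a median log2 ratio of 0.95, and 4 of the 6 arose at the genotype step. Besides XLOC_000229 and SINVm1_gene_00166 these were XLOC_001846, an L2 element, with 34.5 normalised counts in P_Bb and 10.8 in P_BB, against 9.52 in M_BB, and XLOC_042917, a Copia retroelement, with 35.7, 16.9 and 10.3. SINVm1_gene_10899, a Mariner element, had 130 normalised counts in P_Bb and 72.8 in P_BB, against 43.4 in M_BB, a log2 ratio of 1.58 (1.08 to 2.12). It was listed as lower in P_Bb, and its reads were partly shared. SINVm1_gene_10777, a harbi1-like nuclease of the kind found in Harbinger DNA elements, had a log2 ratio of 1.10 (0.27 to 1.98). On the other side XLOC_003144, a Tc1 transposase, had 227 normalised counts in P_Bb and 297 in P_BB, against 372 in M_BB, a log2 ratio of -0.72 (-0.98 to -0.47) that was under 2-fold. Of 2 listed viral protein genes, XLOC_000436, a lambda-type exonuclease, was called higher, with 15 counts in P_Bb and 3.87 in P_BB, against 5 in M_BB.

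The metabolism genes called apart were all lower in P_Bb, the side the list gives them. Of 12 listed, 9 were compared, 3 were at least 2-fold lower in P_Bb and none higher, at a median log2 ratio of -0.37, and all 3 arose at the social form step. They were the desaturase SINVm1_gene_14166, the fatty acyl reductase SINVm1_gene_01163 and the pro-phenol oxidase subunit SINVm1_gene_02300. Fatty acyl reductases turn fatty acyl chains into alcohols, and SINVm1_gene_01163 had 10.7 normalised counts in P_Bb and 13.4 in P_BB, against 34.7 in M_BB, a log2 ratio of -1.70 (-2.93 to -0.62). Pro-phenol oxidase starts melanin formation in insects, and SINVm1_gene_02300 had 7 counts in P_Bb and 7 in P_BB, against 20 in M_BB, with an interval of -2.66 to 0.13 that included 0. SINVm1_gene_00676, a fatty acid synthase, had 0 counts in P_Bb and 0 in P_BB, against 5.11 in M_BB, too few to compare. The cytochrome P450 gene SINVm1_gene_00401 and the NADH dehydrogenase gene SINVm1_gene_05175, also under the minimum, ran the other way. Each had 7 counts in P_Bb and 0 in P_BB, against 1 in M_BB, a log2 ratio of 3.15 (0.19 to 8.64). Among the compared genes under 2-fold, the esterase SINVm1_gene_00238 lay on the higher side, with 164 normalised counts in P_Bb and 132 in P_BB, against 101 in M_BB and a log2 ratio of 0.70 (0.32 to 1.07).

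Among the 15 compared genes of other processes, 2 were higher and 2 lower by at least 2-fold. XLOC_041741, a BEN domain protein, had 23.8 normalised counts in P_Bb and 5.38 in P_BB, against 4.69 in M_BB, a log2 ratio of 2.34 (0.89 to 4.11) at the genotype step. XLOC_030870, an AAA ATPase, had a log2 ratio of 1.04 (-0.03 to 2.16). SINVm1_gene_12498, an ABC transporter of the G family, had 66.6 normalised counts in P_Bb and 85.2 in P_BB, against 154 in M_BB, a log2 ratio of -1.21 (-1.67 to -0.76). SINVm1_gene_06423, a croquemort-like protein of the scavenger receptor family, had 47.6, 59.2 and 99.4 normalised counts in P_Bb, P_BB and M_BB. P_BB lay between the other classes in both of the lower genes, and neither step alone reached 2-fold.

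Of 7 listed genes in the supergene, 5 were compared and 4 lay on the listed side, which was higher in P_Bb for 6 of the 7. SiOBP12 and SINVm1_gene_05326 were at least 2-fold higher, both at the genotype step. SINVm1_gene_05326 had 65.4 normalised counts in P_Bb and 32.3 in P_BB, against 19.7 in M_BB, a log2 ratio of 1.73 (0.98 to 2.53). Its genotype step only just passed 2-fold, at 1.02 (0.39 to 1.67), beside a social form step of 0.71 (-0.10 to 1.56). SINVm1_gene_05144 and SINVm1_gene_05175 were under the minimum, with 13 and 7 counts in P_Bb, 2 and 0 in P_BB, and 3 and 1 in M_BB. SINVm1_gene_05176, a predicted phosphatase, stood at 0.65 (0.09 to 1.21), and SINVm1_gene_13984, a predicted receptor tyrosine kinase, at 0.08 (-1.01 to 1.15). The receptor SiOR463 (XLOC_016888), listed as lower in P_Bb, had 12 counts in P_Bb and 24.0 in P_BB, against 12.9 in M_BB, a log2 ratio of 0.24 (-1.03 to 1.48). SiOR462 (SINVm1_gene_13698) and SiOR163 had at most 2 counts in any library.

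**Figure D4:**
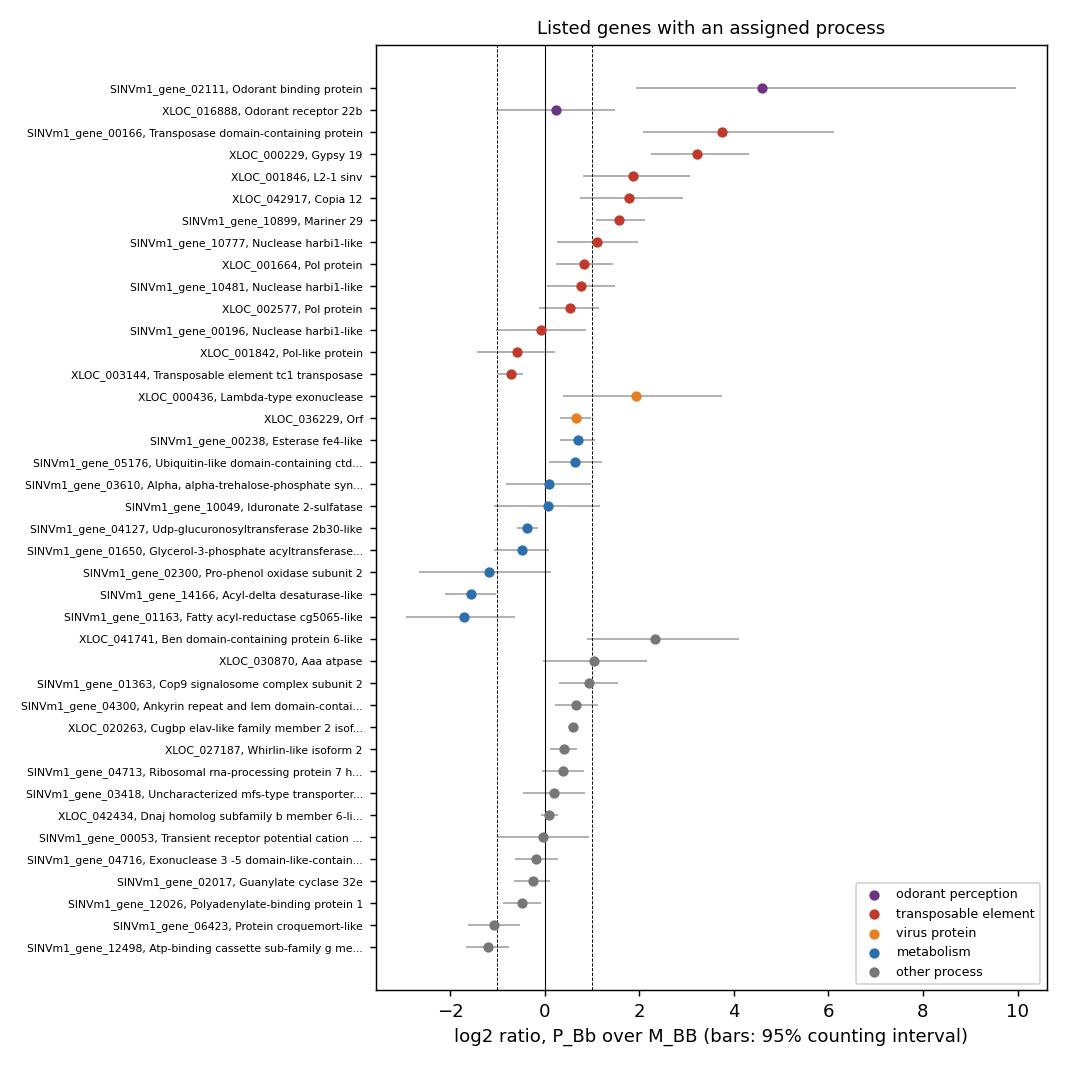
Log2 ratios of P_Bb over M_BB, without an added count, for the compared genes of the study's list that carry an assigned process, grouped by process and ordered within each group. Bars are 95% counting intervals and dashed lines mark 2-fold. Transposable element genes reach furthest right after SiOBP12, and the metabolism genes beyond 2-fold all lie left.

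The median log2 ratio of the odorant receptors was weakly above 0 under upper-quartile scaling and weakly below 0 under total-count scaling. Under both it lay above the median of all compared genes, by 0.125 in each. Of the 473 SiOR genes 175 were compared, 18 (10.3%) were at least 2-fold higher in P_Bb and 6 (3.43%) lower, against 2.63% and 2.73% of all compared genes. Their median log2 ratio was 0.16, with 112 above 0 and 63 below, and -0.03 with total-count scaling, where the median of all genes was -0.16. The called receptors were weakly expressed, with mean normalised counts of 10.1 to 46.3 in the higher and 10.3 to 18.8 in the lower direction, the range in which calls were most frequent among all genes. The percentages for all compared genes are thus not matched for level. Shared reads were also more frequent in this family. Leaving out genes with shared reads kept 144 of the 175 receptors, against 8284 of the 8414 compared genes, at a receptor median of 0.18. Of the called receptors, 3 of the 18 higher and 2 of the 6 lower had shared reads. At means of 10 to 20, 16 of 118 receptors were called higher and 6 lower, against 108 and 147 of 1802 genes of any kind. Summed over the family, receptors held 5910 normalised counts in P_Bb and 5741 in P_BB, against 5451 in M_BB, while their share of the library total, given above, was lower in P_Bb than in M_BB. The direction of the sum thus turned with the scaling, as did the sign of the median. The median's place above that of all compared genes did not. A change in the number of receptor neurons and a change in the RNA of each neuron cannot be told apart in such tissue libraries.

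Of the 18 higher receptors, 7 arose at the social form step, 1 at the genotype step and 10 at neither alone. SiOR435 came first, with 20.2 and 19.7 normalised counts in P_Bb and P_BB against 3.69 in M_BB, a log2 ratio of 2.45 (0.81 to 4.46). SiOR258 had 20.2, 13.3 and 4.69 normalised counts in P_Bb, P_BB and M_BB, and SiOR112 had 17.8, 14.3 and 3.75. Their log2 ratios were 2.11 (0.61 to 3.90) and 2.25 (0.60 to 4.30). The interval of the social form step lay above 0 in SiOR435 (0.84 to 4.39) and SiOR112 (0.30 to 3.97), but included 0 in SiOR258 (-0.01 to 3.33). The polygyne libraries were both high in these receptors.

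Of the 6 lower receptors 3 arose at the genotype step and 3 at neither alone. SiOR391 had 6.61 normalised counts in P_Bb and 16.1 in P_BB, against 20.6 in M_BB, a log2 ratio of -1.64 (-3.12 to -0.18). SiOR137 had 4.76, 13.4 and 15.9 normalised counts in P_Bb, P_BB and M_BB, a log2 ratio of -1.74 (-3.77 to -0.13). Both were placed at the genotype step, but the interval of that step included 0, at -2.80 to 0.22 in SiOR391 and -3.55 to 0.15 in SiOR137. SiOR1_co came first by the bound among the compared receptors on the lower side, although under 2-fold. It had 551 and 544 normalised counts in P_Bb and P_BB against 706 in M_BB, a log2 ratio of -0.36 (-0.53 to -0.19). Its reads were shared with other genes, and its posterior mean count was 317 ± 81.6 in P_Bb against 602 ± 87.5 in M_BB. The counting interval does not cover that doubt.

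The receptors' median was close to that of the XLOC gene models, which also stood above the rest. The 2218 compared XLOC genes had a median log2 ratio of 0.19, with 96 (4.33%) at least 2-fold higher and 45 (2.03%) lower. The 6021 SINVm1 genes had a median of -0.02, with 107 (1.78%) higher and 179 (2.97%) lower. With total-count scaling the medians were -0.0052 in XLOC and -0.21 in SINVm1 genes, so the sign of the XLOC median depends on the scaling while its place above the SINVm1 median does not. In XLOC genes the median was 0.00 at the genotype step and 0.18 at the social form step. In SINVm1 genes these were 0.03 and -0.05. XLOC models were longer, with a median of 2411 bases against 1629, and the median log2 ratio also increased with level, by mean normalised count, to 0.12 in SINVm1 genes and 0.29 in XLOC genes at means of at least 500. At each level the XLOC median was the higher. The part of length, level and the source of the gene models in this tilt was not tested.

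**Figure D5:**
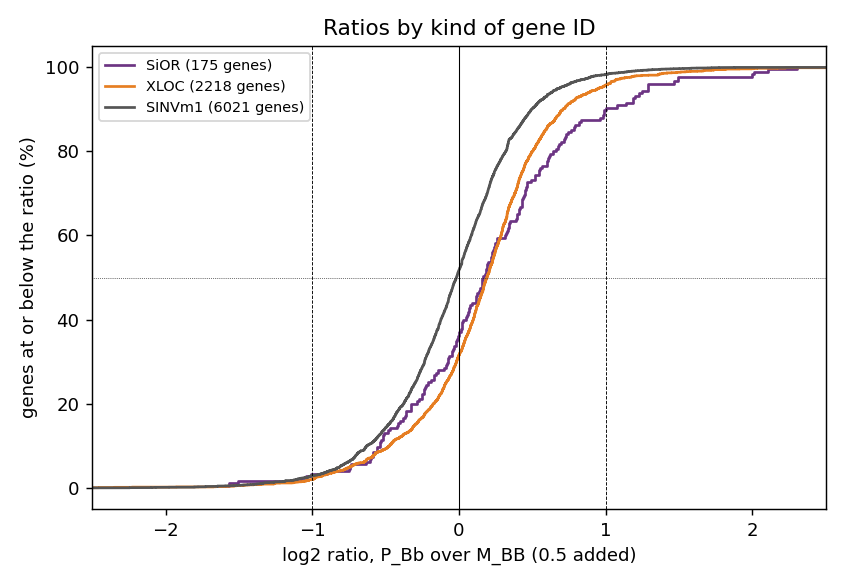
Cumulative percent of compared genes at or below each log2 ratio of P_Bb over M_BB (0.5 added), for SiOR, XLOC and SINVm1 genes under upper-quartile scaling. Dashed lines mark 2-fold. The curves of the 175 SiOR and 2218 XLOC genes lie to the right of the 6021 SINVm1 genes, with medians of 0.16, 0.19 and -0.02, while with total-count scaling the SiOR median was -0.03 and the XLOC median -0.0052.

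The called genes were shorter and scarcer than the rest. Their median length was 1257 bases in the higher (95% order-statistic interval 1188 to 1341) and 1340 bases in the lower direction (1206 to 1407), against 1770 over all compared genes. Their median of the mean normalised count was 20.2 and 16.3, against 50.4. The 2-fold rule itself favours low levels, as 14.2% of genes were called at means of 10 to 20. Length also increased with level, in SINVm1 genes from a median of 1092 bases at means of 10 to 20 to 4494 bases at means of at least 500. A difference in length at equal level was not tested. Shared reads, taken as a posterior SD over 10% of the posterior mean in P_Bb or M_BB, were found for 4.98% of the higher and 5.65% of the lower genes, against 1.55% overall.

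Below the minimum mean of 10 lay 5842 genes, of which 72 had an interval above and 75 below a ratio of 1. SINVm1_gene_00321, an uncharacterized protein, had 16 counts in P_Bb and 3 in P_BB, against 0 in M_BB. With a floor of 3 counts set for the M_BB library, P_Bb was at least 6.77-fold higher. XLOC_003527, an EGF-like domain protein, had 15, 7 and 0 counts in P_Bb, P_BB and M_BB. It was 6.34-fold higher in P_Bb on the same floor, with a lower bound of the log2 ratio of 2.19. SINVm1_gene_14573 had 10, 0 and 0 counts, but posterior means of 5.58 ± 3.16 in P_Bb against 2.55 ± 2.42 in M_BB, and so no fold is given.

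In the lower direction SINVm1_gene_09005 had 1 count in P_Bb and 5 in P_BB, against 16 in M_BB, a log2 ratio of -3.66 (-9.05 to -0.97). SINVm1_gene_00764 had 0 counts in P_Bb and 2.99 in P_BB, against 10.9 in M_BB, at least 2.86-fold lower in P_Bb against a floor of 3 counts. The receptor SiOR280 had 0, 13 and 16 counts in P_Bb, P_BB and M_BB, with a posterior mean of 4.42 ± 3.16 in P_Bb against 13.4 ± 2.42 in M_BB, so that part of its reads may have been placed elsewhere.

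At the 2-fold line, among genes with means of at least 50, XLOC_035689 was just inside with 237 normalised counts in P_Bb and 211 in P_BB, against 118 in M_BB, and SINVm1_gene_13186 just outside with 287, 233 and 143. On the lower side SINVm1_gene_12742 was just inside with 31, 56 and 80 counts in P_Bb, P_BB and M_BB before normalisation, and XLOC_040840 just outside with 73.8, 136 and 145 normalised counts.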

How the data were processed

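Antennal RNA of 3 worker classes was sequenced as 1 pooled library each. Per the labels and the study's methods, the authors mapped reads with Bowtie2 to gene transcripts and counted them with RSEM without using strand; versions were not given in the submitters' processing notes, and no genome coordinates were used. The deposited tables hold per gene the expected count (an estimated count that need not be whole), TPM, and a posterior mean count with its posterior SD, and the last 2 show how far reads are shared between genes. The authors' own comparison of the classes and a transcript annotation with other IDs were not used. None of the 19703 IDs matched the RefSeq gene table of UNIL_Sinv_3.0, so predicted functions are those the study gives.

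Expected counts were divided by size factors from the 75th percentile of nonzero genes. Ratios used a pseudocount of 0.5 and a mean normalised count of at least 10 in P_Bb and M_BB. With 1 library a class no test was made. Exact 95% conditional intervals on rounded counts and Wilson intervals for shares cover counting error only, since amplified reads are not independent molecules. The procedure was tested on simulated Poisson counts, with changes well above 2-fold placed wholly at a single step and not in the scarcest genes. That check does not bear on smaller differences, on those divided over both steps or on the scarcest compared genes. Alternatives were median-of-ratios, TMM (edgeR 4.0.16) and total-count scaling, deposited TPM, posterior mean counts, no minimum or 100, a pseudocount of 5, a 4-fold rule, and an interval that excludes 1. Genes were named by rule: those the study's text names, the 12 first by bound in each direction, the 3 first of each place class, of the SiOR genes and of genes under the minimum, and called listed genes with a predicted function. Members and lists were chosen with earlier results of these data known. Python 3.11.15, numpy 2.4.6, pandas 2.3.3 and scipy 1.17.1 were used.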

Additional observations from a re-analysis of the deposited data

Results flagged for a closer look

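The deposited posterior mean counts, which the comparison did not use, held signal where the expected count was 0. This was so for 5 genes at 0 in P_Bb or M_BB with counts in the other class, whose posterior mean there exceeded the 3 counts that a 0 allows. For SINVm1_gene_10898 the posterior mean in M_BB was 36.6 counts and for XLOC_034528 it was 32.4 counts, in both with a posterior SD of about the same size. Log2 ratios of P_Bb over M_BB from posterior means (0.5 added) were 1.44 for SINVm1_gene_10898, against 7.80 from expected counts, and 1.49 for XLOC_034528. The other genes were SiOR280, SINVm1_gene_01740 and XLOC_038901, all under the minimum.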

How the results depend on the processing

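No paired analysis was possible because each class was 1 library. With total-count scaling 127 genes were higher and 417 lower in P_Bb, in place of 221 and 230. The receptor median turned to -0.030 in place of 0.16, still above the median of all compared genes, which was -0.16. Without a minimum count 3508 genes were apart, 1523 higher and 1985 lower, with 1307 at the genotype and 1327 at the social form step. With a minimum of 100 there were 24, 13 and 11, with 1 and 10 at these steps, 17 of 17 listed genes on the listed side in place of 61 of 67, and a receptor median of 0.017 from 2 genes. With a pseudocount of 5 there were 221, 114 and 107, with 35 and 61 at these steps. With a 4-fold rule there were 34, 18 and 16, with 10 and 6. The cause was not tested, beyond the fewer or more genes each rule admits. The remaining planned settings, and leaving out genes with shared reads (chosen after seeing the data), kept each of these counts within 1.5 times. The receptor median was 0.086 with the deposited TPM and 0.11 with TMM. Of 366 values of 61 named called genes none changed sign and 10 moved beyond the counting interval. Depth limits most calls: 255 of the 451 genes had a mean under 20, and no spread between colonies could be had.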
